A study of Mus musculus and synthetic construct with 15 samples.

Results

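The regions described here are the candidate heart enhancers of a reporter assay that were selected on more than 1 criterion. Each region's identifier carries tags naming how it was chosen, and the 206 regions whose identifier joins at least 2 of the tags GeneAVB, p300AVB, aMTF+p300, aMTF-p300, vMTF+p300 and vMTF-p300 were taken, out of 3820 regions in all. A further 2658 regions carry 1 of these tags and 956 carry none. The rule used the identifiers alone and no measured value, but it was set with earlier results of these data known. The leading a or v of the MTF tags was read as atrial or ventricular, as the labels write aCMs and vCMs; other parts of the tags are used as given, and the sources used here do not give their meaning.

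The measurements come from wild-type mice given a pooled enhancer library in the virus AAV9, a massively parallel reporter assay in the heart. The viral library was given to pups on postnatal day 0 and hearts were taken on day 7. The groups are 5 libraries of RNA from atria and 5 of RNA from ventricles, both labelled as cardiomyocytes, set against 5 libraries of DNA of the viral pool. All RNA libraries are labelled as wild type and treated with an AAV9 library, with no untreated heart among the groups. Whether the sequenced DNA is of the same viral pool that every replicate received is not stated in the labels, and RNA over DNA values rest on it. The deposited counts cover the reporter regions and no heart genes, so the labelled tissue and cell type could not be checked against markers. Nothing in the labels shows that replicates came from separate animals, so p-values measure the spread between these libraries, which may be technical.

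Enhancers are stretches of DNA that raise transcription of a gene when the right transcription factors bind them. p300 is a histone acetyltransferase recruited by such factors, and its presence on chromatin is widely used to find active enhancers. Atrial and ventricular cardiomyocytes share a core set of heart factors, including GATA4, NKX2-5, MEF2, TBX5 and TEAD proteins, and differ in further regulators such as IRX4 in the ventricle. In a reporter assay each sequence drives RNA away from its native locus, so RNA over DNA is taken as a measure of the fragment outside that locus. Here that DNA is of the viral pool, and viral DNA from the hearts was not among the groups.

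Of the 206 multi-tag regions, 85 carried an atrial MTF tag, 69 a ventricular one and 52 joined GeneAVB with p300AVB and no MTF tag. No region joined an atrial with a ventricular MTF tag. The largest combinations were GeneAVB_p300AVB with 52 regions, GeneAVB_vMTF+p300 with 46, GeneAVB_aMTF+p300 with 32 and GeneAVB_aMTF-p300 with 23. GeneAVB_vMTF-p300 and aMTF+p300_p300AVB held 16 regions each. Of the rarer ones, GeneAVB_aMTF+p300_p300AVB held 14, p300AVB_vMTF+p300 held 6 and p300AVB_vMTF-p300 held 1. Each region is 400 bp long. Within 100 kb, 200 regions had a protein-coding gene, and 105 lay inside a gene body; a region is named below by its nearest such gene, which does not say that the gene is its target. No region overlapped another designed region, but 57 lay within 1 kb of one.

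A promoter window of a gene in RefSeq (GRCm38.p6, the build also called mm10) overlaps 5 multi-tag regions. The sequence of 4 of these could be read in part, since the remaining region overlapped too little of the 250 upstream bases used. All 4 are shown, whatever their calls. They include a pair of neighbouring regions that differed in their calls. The others are an aMTF region that was lower in atrium and a GeneAVB_p300AVB region that was higher in atrium. Capitals mark matches, on either strand, to any of 7 motifs. Those of the T-box factors (searched as AGGTGT), of the GATA family (searched as AGATAA), of the TEAD proteins (searched as CATTCC) and of the estrogen-related receptors (searched as AAGGTCA) were joined by the NKX2-5 motif (searched as AAGTG) and the MEF2 and SRF sites. The stretches cover part of each region, and a match is a description of letters, not a bound site.
Tgfb2 region 1, chr1:186587072-186587234, plus strand: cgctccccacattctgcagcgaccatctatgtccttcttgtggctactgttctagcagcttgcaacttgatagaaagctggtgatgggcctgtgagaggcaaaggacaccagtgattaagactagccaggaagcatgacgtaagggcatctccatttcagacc
Tgfb2 region 2, chr1:186587235-186587321, plus strand: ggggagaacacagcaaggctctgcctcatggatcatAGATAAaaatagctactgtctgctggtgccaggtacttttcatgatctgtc
Dagla region, chr19:10289922-10290130, plus strand: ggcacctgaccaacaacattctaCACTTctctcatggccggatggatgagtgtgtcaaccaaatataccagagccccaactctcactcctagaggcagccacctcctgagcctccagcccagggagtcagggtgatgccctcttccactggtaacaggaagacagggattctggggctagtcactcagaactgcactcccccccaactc
Lmo2 region, chr2:103896267-103896516, minus strand: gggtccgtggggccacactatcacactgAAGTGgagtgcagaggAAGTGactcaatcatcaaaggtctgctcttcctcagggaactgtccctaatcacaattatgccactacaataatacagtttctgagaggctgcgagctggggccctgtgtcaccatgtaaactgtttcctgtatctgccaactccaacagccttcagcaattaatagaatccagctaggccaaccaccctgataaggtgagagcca

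Both Tgfb2 stretches lie in the promoter window of Gm35546. Tgfb2, which encodes a secreted growth factor, is the nearest protein-coding gene, 35753 bp from region 1 and 35353 bp from region 2. Region 2 was lower in atrium than in ventricle (log2 change -0.51 ± 0.09 SE, adjusted p = 0.000634 by edgeR's quasi-likelihood test) and its stretch holds 1 GATA match, a motif found in 4.0% of 32851 RefSeq promoter windows cut to 87 bases. Region 1, which has 0 matches in its stretch, was at -0.11 and did not pass. AGATAA was the only GATA form searched. The letters tgatag in region 1 and tgataa in the Lmo2 stretch were not searched. A count of 0 thus does not say that a stretch lacks a GATA site. The difference between the 2 Tgfb2 regions was not beyond the spread of the libraries (0.41 on the log2 scale, exact permutation p = 0.183). The Dagla stretch, in the promoter window of Gm30042, holds 1 NKX2-5 match read on the other strand, and its region was higher in atrium (log2 change 0.51, adjusted p = 0.00163). The Dagla region was below DNA in both chambers, with log2 changes of -1.17 in atrium and -1.57 in ventricle. The Lmo2 stretch, in the promoter window of Gm34948, holds 2 NKX2-5 matches, and its region lies 61487 bp from Lmo2. This region was lower in atrium (log2 change -0.36, adjusted p = 0.0209), though its atrial and ventricular libraries overlapped. Dagla encodes a lipase that makes an endocannabinoid, and Lmo2 a bridging protein of transcription factor complexes. This short motif is common: 35.4% of windows of 209 bases and 40.7% of windows of 250 bases hold it.

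Library totals were 877773 counts in atrial replicate 1 and 1718563 to 2369985 in the other atrial libraries. Ventricular replicate 1 held 1271527 counts and the other ventricular libraries 2862596 to 3781726. DNA libraries held 2312820 to 2958271. The multi-tag regions took 6.27 to 6.70% of counts in atrial RNA, 5.82 to 6.15% in ventricular RNA and 4.39 to 4.66% in DNA. The RNA libraries of replicate 1 stand apart: 23 multi-tag regions had 0 counts in atrial replicate 1 and 18 in ventricular replicate 1, against 2 to 7 in the other RNA libraries. Some results that rest on these libraries are also given without them. The counts and medians against DNA by tag, and the change between chambers near Hint1, are given with them only.

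The first comparison asks which regions drove more RNA in one chamber than in the other. Of the 206 regions, 162 had a mean of at least 10 DNA counts and were tested; the 44 others come last. Among the 162, 39 were higher in atrium and 20 were lower, at an adjusted p under 0.05 over all 2601 regions tested. That is 36.4% called, against 30.9% of all regions tested, of which 15.8% were higher and 15.1% lower. The median log2 change was 0.15 over the multi-tag regions and 0.03 over all tested regions. In 49 multi-tag regions the call came with atrial and ventricular libraries that did not overlap, a pattern found in 21.9% of all regions tested. Scaled on the regions that the group column calls negative controls, which shifts the median of all regions by 0.16, the multi-tag regions had 52 higher and 10 lower. Shares of all regions called under this or other alternative settings are not given here, so such counts describe the multi-tag regions only. A change of 2-fold or more was called higher in atrium in 14 multi-tag regions and lower in 3, while 7.92% of all tested regions had such a call in either direction.

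Over all tested regions of a class, the medians of MTF-tagged regions lay on the side of the named chamber. Of 64 tested regions with an atrial tag, 22 were higher in atrium, 8 lower, with a median log2 change of 0.31. Of 52 with a ventricular tag, 4 were higher in atrium and 10 lower, with a median of -0.22. The 46 GeneAVB_p300AVB regions, which name no chamber, had 13 higher and 2 lower and a median of 0.31. In single replicates the median over atrial-tag regions lay between 0.21 and 0.39, that over GeneAVB_p300AVB regions between 0.20 and 0.39, and that over ventricular-tag regions between -0.22 and -0.14. Each of the 5 replicates, atrium against the ventricle of the same number, thus gave the same sign within a class. For replicates 3, 4 and 5 the atrial library correlated best with a ventricular library of another number. The numbers therefore do not mark 5 clear pairs. With replicates 2 to 5 alone, the counts were 20 higher and 9 lower for atrial tags, 5 and 9 for ventricular tags, and 12 and 3 for GeneAVB_p300AVB. Scaled on the negative controls, the counts were 27 and 3, 8 and 5, and 17 and 2 for these classes, so that the balance of calls among ventricular-tag regions turned, with a median of -0.058.

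This differed with depth in DNA. The 25 ventricular-tag regions with at least 300 mean DNA counts had 3 higher and 3 lower and a median of 0.14, on the other side from the -0.47 of the 13 with 10 to 100 counts and the -0.32 of the 14 with 100 to 300. For atrial tags the medians were 0.51, 0.14 and 0.38 in the order of rising DNA counts, and for GeneAVB_p300AVB 0.21, -0.03 and 0.46. Over all tested regions they were -0.09, -0.02 and 0.11.

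Of 355 tested single-tag regions with an atrial tag 74 were higher and 37 lower in atrium, with a median of 0.17, and of 472 with a ventricular tag 59 were higher and 138 lower, with a median of -0.16. Single-tag regions without an MTF tag had 218 higher and 126 lower of 1066, with a median of 0.13. The difference between multi-tag and single-tag regions was not tested.

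The atrial combinations differed in their counts, and no test was made between them. The 12 tested regions with the 3 tags GeneAVB, aMTF+p300 and p300AVB had 6 higher in atrium and 0 lower, with a median log2 change of 0.69. The 9 tested aMTF+p300_p300AVB regions had 4 higher and 0 lower, with a median of 0.78. These 21 regions together gave 10 higher and 0 lower and a median of 0.78, and the median was above 0 in each replicate, between 0.37 and 0.91. With replicates 2 to 5 alone the count was again 10 and 0. The 27 GeneAVB_aMTF+p300 regions, which lack p300AVB, had 6 higher and 7 lower and a median of 0.10. Single-tag aMTF+p300 regions had 52 higher and 22 lower of 218, with a median of 0.20. GeneAVB_aMTF-p300 had 6 higher and 1 lower of 16, with a median of 0.09. On the ventricular side, GeneAVB_vMTF+p300 had 3 higher in atrium and 7 lower of 37, GeneAVB_vMTF-p300 had 1 and 1 of 12, and p300AVB_vMTF+p300 had 0 and 2 of 3. The regions of a combination are not replicates of a condition, so these counts describe the regions.

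Among called regions whose chambers did not overlap, the 2 largest atrial changes were in regions that join GeneAVB, aMTF+p300 and p300AVB. The region at chr11:5889034-5889433 lies near Myl7, the atrial myosin regulatory light chain. It had 1573, 1240, 1027, 1141 and 1740 CPM in atrium, against 384, 227, 233, 198 and 255 CPM in ventricle, and 154 to 188 CPM in DNA. Every atrial library was above every ventricular one, and the log2 change was 2.39 ± 0.20 (SE, adjusted p = 1.6e-06, edgeR). These CPM are on 1 scale for all 15 libraries. The region at chr5:119794240-119794639 lies near Tbx5, a T-box transcription factor needed for atrial and septal development. It had 219, 172, 214, 257 and 188 CPM in atrium, against 55.3, 55.8, 58.7, 47.5 and 69.6 CPM in ventricle. The groups did not overlap, and the log2 change was 1.89 ± 0.18 (adjusted p = 9.1e-07, edgeR). Both were above DNA in each chamber, with log2 changes of 2.85 in atrium and 0.57 in ventricle for Myl7, and of 3.53 and 1.76 for Tbx5.

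A further 3-tag region, inside Gnao1 at chr8:93868872-93869271, had 361, 243, 282, 228 and 281 CPM in atrium, against 111, 136, 133, 147 and 126 CPM in ventricle. Gnao1 encodes a G protein alpha subunit. Its libraries did not overlap between chambers, and the log2 change was 1.10 ± 0.16 (adjusted p = 5.9e-05, edgeR). Fcamr, with aMTF+p300_p300AVB at chr1:130804280-130804679, is a receptor for immunoglobulin. Its region had 632, 611, 491, 696 and 732 CPM in atrium, against 256, 187, 198, 196 and 237 CPM in ventricle, a log2 change of 1.58 ± 0.13 with no overlap (adjusted p = 2.8e-07, edgeR). Camk1d, a calcium and calmodulin dependent kinase, holds the GeneAVB_aMTF-p300 region at chr2:5700966-5701365. It had 981, 740, 825, 867 and 731 CPM in atrium, against 409, 382, 344, 330 and 308 CPM in ventricle, and 478 to 605 CPM in DNA. The atrial libraries were all above DNA and the ventricular ones all below it, with a log2 change between chambers of 1.24 ± 0.11 (adjusted p = 3.9e-07, edgeR).

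Lrrc4c, which encodes a synaptic adhesion protein, is the nearest gene to a GeneAVB_aMTF-p300 region at chr2:96255055-96255454. Its mean DNA count sat at the filter limit of 10. Its region had 44.7, 100.5, 57.5, 46.5 and 48.2 CPM in atrium, against 20.4, 17.3, 32.8, 15.8 and 11.3 CPM in ventricle. The chambers did not overlap, though atrial replicate 2 was far above its group, and the log2 change was 1.63 ± 0.35 (adjusted p = 0.00197, edgeR). Among GeneAVB_p300AVB regions the highest was in Slit3, a secreted guidance ligand, at chr11:35244606-35245005. It had 1202, 975, 1405, 1121 and 960 CPM in atrium, against 406, 471, 427, 455 and 522 CPM in ventricle, a log2 change of 1.33 ± 0.12 (adjusted p = 3.9e-07, edgeR). Its groups did not overlap.

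Some regions went against the chamber of their tag. Of the 4 vMTF regions that were higher in atrium, the largest was in Plekhh1, at chr12:79044669-79045068, with the tags GeneAVB and vMTF+p300. It had 5494, 4898, 4144, 4277 and 5424 CPM in atrium, against 1681, 1362, 1434, 1443 and 1448 CPM in ventricle, and 4679 to 5845 CPM in DNA. The atrial libraries overlapped DNA while the ventricular ones were all below it, and the log2 change between chambers was 1.73 ± 0.09 (adjusted p = 2.2e-09, edgeR). The other 3, chosen for naming after their values were seen, were near Slc22a2 at 1.06, Fam78a at 0.93 and Cyria at 0.92 on the log2 scale.

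Of the 8 aMTF regions that were lower in atrium, 7 carried GeneAVB_aMTF+p300 and 1 GeneAVB_aMTF-p300. The largest change was near Myh7, the slow myosin heavy chain, which the adult mouse heart largely replaces with Myh6, at chr14:55004404-55004803. It had 161, 172, 230, 176 and 189 CPM in atrium, against 559, 519, 512, 537 and 540 CPM in ventricle. No libraries overlapped, and the log2 change was -1.50 ± 0.12 (adjusted p = 2.2e-07, edgeR). In Nav2, a cytoskeletal navigator protein, the region at chr7:49088086-49088485 had 131, 165, 209, 186 and 109 CPM in atrium, against 281, 240, 301, 258 and 232 CPM in ventricle. Its log2 change was -0.69 ± 0.18 (adjusted p = 0.00811, edgeR) with no overlap.

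The regions with ventricular tags that were higher in ventricle were led by Irx4, a ventricular homeobox factor. The GeneAVB_vMTF+p300 region at chr13:73277346-73277745 had 304, 377, 346, 285 and 335 CPM in atrium, against 1019, 914, 731, 740 and 786 CPM in ventricle, and 38.5 to 57.2 CPM in DNA. Its chambers did not overlap and both were above DNA, with a log2 change between chambers of -1.33 ± 0.12 (adjusted p = 4.1e-07, edgeR). A second Irx4 region at chr13:73282371-73282770, tagged GeneAVB_p300AVB, had 434, 458, 561, 590 and 571 CPM in atrium, against 819, 867, 817, 928 and 883 CPM in ventricle. It too showed no overlap, at -0.71 ± 0.10 (adjusted p = 7.8e-05, edgeR). Kcnq1, a potassium channel of cardiac repolarisation, holds the GeneAVB_vMTF+p300 region at chr7:143385826-143386225, with 81.1, 64.2, 90.3, 81.2 and 56.2 CPM in atrium, against 181, 203, 178, 167 and 119 CPM in ventricle. The log2 change was -1.16 ± 0.20 (adjusted p = 0.000288, edgeR), again without overlap.

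3 further regions of the named set were higher in ventricle. In Polm, a DNA polymerase, the GeneAVB_p300AVB region at chr11:5830564-5830963 had 157, 169, 132, 198 and 148 CPM in atrium, against 278, 292, 269, 304 and 304 CPM in ventricle, a log2 change of -0.83 ± 0.14. The p300AVB_vMTF+p300 region at chr14:100461422-100461821 had no protein-coding gene within 100 kb. It had 285, 274, 180, 186 and 269 CPM in atrium, against 352, 434, 370, 429 and 422 CPM in ventricle, a log2 change of -0.74 ± 0.15. Both had chambers that did not overlap. Mical2, which encodes an actin-oxidising enzyme, holds the GeneAVB_vMTF+p300 region at chr7:112258503-112258902, with 179, 166, 150, 180 and 115 CPM in atrium, against 291, 515, 207, 225 and 221 CPM in ventricle. Ventricular replicate 2 was far above its group, and the log2 change of -0.87 ± 0.24 (adjusted p = 0.0126, edgeR) did not pass with limma-voom or without a filter.

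The names of the deposited group column are used as given. The column was not independent of the tags. Most atrial-tag regions in spMTF or spP300 carried p300AVB, and most of those in MTF or P300 did not. The atrial split by group thus overlaps with the comparison by p300AVB above, and their parts were not separated. Among atrial-tag regions, the 18 tested in the group spMTF or spP300 had 7 higher in atrium and 0 lower (median log2 change 0.47), while the 37 in MTF or P300 had 11 and 8 (median 0.23). Among ventricular-tag regions, the 20 in spMTF or spP300 had 0 higher in atrium and 5 lower (median -0.30), while the 24 in MTF or P300 had 4 and 4 (median 0.09). All 12 calls that the group spMTF or spP300 gave to regions with an MTF tag were thus in the chamber of the tag. Among single-tag regions of that group, the 50 with an atrial tag had 15 higher in atrium and 5 lower (median 0.23), and the 110 with a ventricular tag had 5 higher and 49 lower (median -0.47).

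Some regions lie end to end, which allows a comparison of adjacent sequence. There were 25 pairs of multi-tag regions where one begins just after the other ends, and both regions of a pair always carried the same tags. In 19 pairs both were tested. The log2 change between chambers differed within a pair by 0.05 to 1.88, with a median of 0.50, against a median of 0.52 over all 98 such pairs of the series. By an exact two-sided permutation test over the 5 and 5 libraries, whose smallest p is 0.00794, 4 pairs of multi-tag regions reached that smallest value. After adjustment over the 98 pairs these stood at 0.0598, and 0 of the 98 pairs passed (0.00%).

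The 4 pairs lay near Tbx5, Itga6, Myh7 and Nav2. Near Tbx5 the region described above changed by 1.89, while its neighbour at chr5:119793840-119794239 was at 0.02. That neighbour had 18.7, 16.7, 10.96, 12.4 and 21.4 CPM in atrium, against 18.2, 14.3, 17.1, 13.8 and 16.0 CPM in ventricle, so the chambers overlapped fully. Near Myh7 the neighbour at chr14:55004004-55004403 had 2735, 2622, 2529, 2623 and 2573 CPM in atrium, against 3519, 3198, 3228, 3069 and 3192 CPM in ventricle. It was lower in atrium (log2 change -0.29 ± 0.06, adjusted p = 0.00131, edgeR), against -1.50 for the region beside it. The Itga6 regions, near a laminin receptor subunit, were at -0.30 and 0.98, and the Nav2 regions at -0.69 and 0.42. With replicates 2 to 5 alone, the differences between neighbours were -1.86 for Tbx5, -1.37 for Itga6, 1.17 for Myh7 and -1.04 for Nav2, the first region minus the second.

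Chamber genes were taken as a list of 32 genes known for atrial or ventricular expression, and 24 multi-tag regions had one of them as nearest gene. Of the 22 tested, 5 were higher in atrium and 5 lower, while 15.8% of all tested regions were higher and 15.1% lower. The median log2 change of the 22 was 0.02, against 0.03 over all tested regions. The 5 higher lay near Myl7 (both its regions), Tbx5, Myl4 and Sln. Sln, which encodes the atrial calcium pump inhibitor sarcolipin, had 155, 118, 143, 135 and 120 CPM in atrium, against 106, 114, 69.5, 84.3 and 60.7 CPM in ventricle, a log2 change of 0.65 ± 0.20 (adjusted p = 0.0234, edgeR). Its lowest atrial library was above its highest ventricular one. The second Myl7 region, at chr11:5892241-5892640, was at 0.64 ± 0.12, and that of Myl4, the atrial essential light chain, at 0.63 ± 0.22 (adjusted p = 0.043, edgeR; 0.0674 with a replicate block, 0.0812 with replicates 2 to 5 alone). Both of these were below DNA in each chamber.

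The 5 lower were both Irx4 regions, the 2 neighbouring Myh7 regions and Myl3, the ventricular essential light chain. Myl3 had 1219, 1026, 1059, 1200 and 1665 CPM in atrium, against 2202, 1813, 1740, 1720 and 1739 CPM in ventricle, a log2 change of -0.56 ± 0.12 (adjusted p = 0.00236, edgeR) with no overlap. The remaining Myh7 region, at chr14:54996717-54997116 and tagged GeneAVB_vMTF-p300, was at 0.16 and did not pass. The 12 tested regions of the list that did not pass include both Kcnj5 and both Stard10 regions. Bmp10, a growth factor of the trabecular and atrial myocardium, had 1 region at 0.47 (adjusted p = 0.0546, edgeR; 0.0193 with a replicate block) and 1 at -0.30. Regions near Gja5, Myh7b and Fgf12 were at 0.20, -0.28 and 0.36. Of the other lists, the 13 heart transcription factors and the 13 contractile and calcium genes had 0 multi-tag regions, and the 9 conduction and ion channel genes had 1, that of Kcnq1.

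The next comparisons ask which regions drove RNA above their share of the viral DNA. In atrium 73 of the 162 were higher than DNA and 48 lower, while 38.4% of all tested regions were higher and 36.3% lower (74.7% called). In ventricle 84 were higher and 53 lower, while 43.4% of all tested regions were higher and 37.8% lower (81.2% called). The median log2 change was 0.24 in atrium and 0.35 in ventricle, against 0.04 and 0.13 over all tested regions. Scaled on library totals, which shifts the median of all regions by 0.48 in atrium and 0.37 in ventricle, the counts were 99 higher with 26 lower for atrium over DNA, and 98 with 40 for ventricle over DNA. On the negative controls, with shifts of 0.40 and 0.17, they were 92 and 28 in atrium and 90 and 46 in ventricle. Shares of all regions called under these scalings are likewise not given. Both comparisons share the DNA libraries, and each value is set against the library's bulk. The fitted atrium over DNA values lie 0.10 below those on the common scale of the printed CPM.

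By tag, the 64 atrial-tag regions had 36 higher and 14 lower than DNA in atrium (median 0.55) and 35 and 17 in ventricle (median 0.41). The 52 ventricular-tag regions had 20 and 17 in atrium (median 0.07) and 30 and 17 in ventricle (median 0.59). GeneAVB_p300AVB regions had 17 and 17 in atrium (median -0.04) and 19 and 19 in ventricle (median -0.13). Depth in DNA moved with these values: over all tested regions the median atrium over DNA was 1.21 with 10 to 100 mean DNA counts, 0.20 with 100 to 300 and -0.66 above 300. Its part in the results against DNA was not tested.

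Calls in the chamber comparison were set beside those against DNA. Of the 39 regions higher in atrium, 19 were above DNA in both chambers (48.7%), 4 in atrium alone, and 11 were below DNA in both (28.2%). Of the 20 lower in atrium, 10 were above DNA in both chambers, 8 in ventricle alone, and 0 were below DNA in both. Among all 162 multi-tag regions tested, 40.7% were above and 25.9% below DNA in both chambers, so the shares of the regions higher in atrium lay near those of the whole set. Over all regions of the series that were higher in atrium, 29.4% were above and 36.7% below DNA in both, the reverse order. Over all regions of the series that were lower in atrium, 59.2% were above and 8.42% below DNA in both.

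The highest fitted values against DNA in both chambers belonged to a second region in Plekhh1, at chr12:79055335-79055734, tagged GeneAVB_vMTF+p300. It falls outside the rule for named regions, because replicate 1 overlapped DNA, and was chosen after its values were seen. It had 33.3, 2741, 3566, 3166 and 3921 CPM in atrium, 30.5, 7183, 7145, 7284 and 8178 CPM in ventricle, and 30.7 to 38.0 CPM in DNA. In replicate 1 both chambers were at the level of DNA, and in replicates 2 to 5 all RNA libraries were far above it. The log2 change over DNA was 6.21 ± 1.03 in atrium and 7.47 ± 1.24 in ventricle, or 6.56 ± 0.15 and 7.73 ± 0.11 with replicates 2 to 5 alone. Between chambers it was at -1.13 ± 1.27 and did not pass (adjusted p = 0.57, edgeR), but with replicates 2 to 5 alone it was lower in atrium at -1.13 ± 0.10 (adjusted p = 1.07e-06, edgeR). The other Plekhh1 region, described above, was higher in atrium.

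Among called regions whose libraries did not overlap DNA, the highest in atrium was near Hint1, a nucleotide hydrolase, at chr11:54879983-54880382, with the tags GeneAVB, aMTF+p300 and p300AVB. That region had a mean DNA count of 11.4, near the filter limit of 10. It had 44.7, 335, 343, 345 and 424 CPM in atrium, 34.2, 78.2, 104, 106 and 75.7 CPM in ventricle, and 3.51 to 9.53 CPM in DNA. Replicate 1 was the lowest in both chambers. The log2 change of atrium over DNA was 5.68 ± 0.56, and 5.94 with replicates 2 to 5 alone. Between chambers it was called higher in atrium at 1.92 ± 0.54 (adjusted p = 0.0238, edgeR), although atrial replicate 1 lay among the ventricular libraries. The GeneAVB_aMTF+p300 region in 2200002J24Rik at chr7:30706503-30706902 was the highest of these in ventricle, with a mean DNA count of 15.6. It had 31.2, 252, 264, 314 and 326 CPM in atrium, 51.6, 524, 518, 470 and 520 CPM in ventricle, and 6.51 to 8.10 CPM in DNA. Again replicate 1 was far below the rest, and the log2 change was 4.91 in atrium and 5.84 in ventricle, or 5.26 and 6.09 with replicates 2 to 5 alone.

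In other regions replicate 1 lay with its group. The GeneAVB_vMTF+p300 region in Sphkap, an anchoring protein of sphingosine kinase and protein kinase A, lies at chr1:83345514-83345913. It had 1976, 1803, 1781, 1624 and 1904 CPM in atrium, 2015, 1998, 1789, 1808 and 1877 CPM in ventricle, and 46.7 to 62.4 CPM in DNA. Its RNA was far above DNA in both chambers, by 4.99 ± 0.12 in atrium and 5.15 ± 0.10 in ventricle on the log2 scale, and the chambers overlapped (-0.05, adjusted p = 0.683, edgeR). In Mboat2, a lysophospholipid acyltransferase, the GeneAVB_vMTF-p300 region at chr12:24912178-24912577 had 322, 252, 350, 362 and 236 CPM in atrium, 337, 303, 281, 303 and 283 CPM in ventricle, and 7.37 to 12.9 CPM in DNA. The log2 changes over DNA were 4.79 and 4.88. A second region near Sphkap, at chr1:83455317-83455716 and tagged GeneAVB_aMTF-p300, was at 4.23 in atrium, with a mean DNA count of 10.8. Polm was at 4.51 in ventricle, with a mean DNA count of 27.2. Agtr1a, an angiotensin receptor, was at 4.38 in ventricle, or 4.37 with replicates 2 to 5 alone, with a mean DNA count of 21. Its replicate 1 was the lowest in both chambers, at 78.0 CPM in atrium and 84.3 CPM in ventricle.

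The lowest against DNA was near Rdm1, a protein of DNA repair, at chr11:101645710-101646109 with the tags GeneAVB and aMTF+p300. It had 304, 299, 111, 195 and 272 CPM in atrium, 333, 284, 252, 176 and 159 CPM in ventricle, and 1956 to 2307 CPM in DNA. All RNA libraries were below all DNA libraries, with log2 changes over DNA of -3.22 ± 0.24 in atrium and -3.09 ± 0.19 in ventricle. A second Rdm1 region, at chr11:101641648-101642047, was at -2.25 in atrium, and one in Prdm16, a transcriptional regulator of heart and fat, at -2.24. In ventricle, regions near Ccnd1, which encodes cyclin D1, and near Tha1 were at -2.36 each.

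The 44 untested regions had a mean of under 10 DNA counts, and 13 of them had 0 counts in all 5 DNA libraries. A count of 0 allows up to 3 counts, or 1.01 to 1.30 CPM by library total, and covers counting error only, since the counts may be reads rather than molecules. Together these 13 regions gave 1, 1245, 2324, 1791 and 1463 counts in atrium and 10, 2623, 3082, 3308 and 3428 in ventricle. Both replicate 1 libraries were close to DNA in this, and the 8 others were far above. Of the 13, 8 had RNA in all of replicates 2 to 5 of both chambers. An example from the chamber genes is Dkk3, a secreted Wnt modulator, at chr7:112149115-112149514, with 0, 77.3, 90.8, 138 and 122 CPM in atrium and 0, 45.2, 37.3, 27.9 and 67.2 CPM in ventricle. Without the filter on DNA counts, 1 of the 44 was called higher in atrium and 3 lower. The share of all regions called in that fit is not given here, so these counts describe the 44 regions only.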

How the data were processed

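The values are counts per region, deposited by the authors as whole numbers and not normalized, in 15 libraries grouped by the labels. According to the submitters' processing notes, the build was mm10 and the tools included Bowtie2 2.3.4.3 and cutadapt 2.5. The labels' protocols describe a primer with a molecular identifier, but the sources used here do not say if counts are reads or molecules. The series-wide table and the library files differed in 0 values.

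Each of the 3 comparisons was fitted on its 5 and 5 libraries with edgeR 4.0.16 (quasi-likelihood, robust, TMM) in R 4.3.3, on the 2601 regions whose DNA counts average 10 or more. Benjamini-Hochberg adjustment ran over all 2601. Printed CPM use TMM factors over all 15 libraries. limma 3.58.1 (voom) and DESeq2 1.42.0 were alternatives, and the closing section gives the others. The fits were tested on simulated counts. Nearest genes came from RefSeq gene bodies, and no genome was used.

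Atrial and ventricular libraries that share a number deviated together from their group means (correlation 0.225 to 0.819, all over the 0.1 set for pairing). Those of atrium with DNA were -0.017 to 0.0367 and of ventricle with DNA -0.0319 to 0.0605, which does not. Replicate 1 gave the highest value, and for replicates 3, 4 and 5 the atrial library correlated best with a ventricular library of another number.

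The members and lists were chosen with earlier results of these data known. Named regions are the 8 largest changes each way between chambers among called regions whose libraries do not overlap, the 5 highest and 3 lowest against DNA in each chamber by the same rule, and those near a listed heart gene. The test of neighbouring regions was added after the data were seen. It was first adjusted over the 19 multi-tag pairs alone, where 4 were under 0.05; adjustment over all 98 pairs of the series then replaced this, and 0 passed.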

Additional observations from a re-analysis of the deposited data

Results flagged for a closer look

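In 138 groups of 5 libraries of the named regions, 13 had a highest or lowest library set apart from the others by Dixon's criterion, which chance meets in about 1 in 20 groups. Replicate 1 of RNA made up 5 of them. Hint1 had 44.7 CPM in atrial replicate 1, with the nearest library at 335 CPM. The region in 2200002J24Rik had 31.2 CPM in atrial replicate 1, nearest 252, and 51.6 CPM in ventricular replicate 1, nearest 470. In the high direction, ventricular replicate 1 of Plekhh1 stood at 1681 CPM, nearest 1448, and that of Myl3 at 2202 CPM, nearest 1813.

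Other RNA libraries set apart were atrial replicate 2 of Lrrc4c at 100.5 CPM (nearest 57.5), ventricular replicate 2 of Mical2 at 515 CPM (nearest 291), atrial replicate 4 of a Fgf12 region at 10.5 CPM (nearest 35.5) and ventricular replicate 5 of the second Myl7 region at 703 CPM (nearest 503). In DNA, replicate 2 of Hint1 stood at 9.53 CPM (nearest 4.65), and replicate 3 of Rdm1 at 2307 CPM (nearest 2015). Replicate 3 of a Kcnj5 region stood at 2980 CPM (nearest 2567), and replicate 4 of a Tbx5 region at 140 CPM (nearest 156).

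The 13 regions with 0 counts in every DNA library gave 19264 RNA counts in replicates 2 to 5, and entered only the fits without a filter on DNA counts.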

How the results depend on the processing

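The number of regions lower than DNA in atrium, 48, was 26 with library totals, 28 when scaled on the negative controls and 29 with at least 100 DNA counts, where fewer regions were tested. Between chambers, the 20 lower regions became 10 when scaled on the negative controls. The median log2 change between chambers for atrial tags was 0.21 with at least 100 DNA counts and 0.47 on the negative controls. For ventricular tags it was -0.26 with limma-voom, -0.16 without a filter and -0.058 on the negative controls, and for GeneAVB_p300AVB it was 0.48 on the negative controls. For the scalings, the cause was not tested beyond the shift of all regions. Leaving out 1 library at a time gave 32 to 38 higher and 17 to 26 lower between chambers, 70 to 74 and 40 to 53 for atrium over DNA, and 76 to 83 and 50 to 57 for ventricle over DNA. The medians then ranged over 0.25 to 0.34 for atrial tags, -0.25 to -0.18 for ventricular tags and 0.24 to 0.40 for GeneAVB_p300AVB. With the replicate number as a block, the counts were 40 higher and 24 lower between chambers, 68 and 47 for atrium over DNA, and 83 and 53 for ventricle over DNA. Of the 59 calls between chambers, 58 were kept with the block, 53 with replicates 2 to 5 alone and 49 on the negative controls, and 0 changed sign. Among named regions the block changed the calls of Bmp10 and Myl4 between chambers, as given above. Regions with few DNA counts have the least precise values against DNA.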
